A study of Homo sapiens with 3 samples.

Results

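The Hippo pathway and its transcriptional output were described in H82R cells for 10 genes chosen by name from the deposited count table: the coactivators YAP1 and WWTR1, the DNA-binding partners TEAD1, TEAD2, TEAD3 and TEAD4, the kinases LATS1 and LATS2, and the target genes CYR61 and CTGF (current names CCN1 and CCN2). All 10 were found among the 27574 genes of the table, and 8 of them had at least 10 counts in each of the 3 libraries, the level called detected here, which 14612 genes reached. H82 is an established cell line of human origin, grown from a small cell lung cancer. The 3 libraries carry the title H82_R, form 1 group, and share etoposide plus cisplatin as their treatment; the sample labels speak of a treated tumor, while the growth protocol describes culture in RPMI1640 with serum. No untreated or parental H82 sample is part of the 3, so the values give levels and their spread between libraries and no effect of the drugs.

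Hippo signalling is a kinase cascade that restrains tissue growth. The kinases MST1 and MST2 (genes STK4 and STK3) with the adaptor SAV1 activate LATS1 and LATS2, which with their MOB1 cofactors phosphorylate YAP1 and its paralog TAZ (gene WWTR1), and the phosphorylated coactivators are held in the cytoplasm by 14-3-3 proteins or degraded. Unphosphorylated YAP1 and TAZ enter the nucleus, where they bind DNA through TEAD proteins and drive genes such as CYR61 and CTGF. Because control is largely by phosphorylation and location of the proteins, RNA levels show which parts are made and not how active the pathway is. In small cell lung cancer, most neuroendocrine tumors are known for little YAP1, and YAP1 is used as a marker of a non-neuroendocrine state.

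The libraries, named replicate 1, 2 and 3, held 25013265, 42610181 and 23868201 counts. Levels are given as CPM, the count scaled to a TMM-adjusted library size, and, where genes are set against each other, as CPM per kb of exon. A count of 0 allows up to 0.0702 to 0.125 CPM (3 counts), and all such limits and intervals cover counting error only. The median detected gene stood at 25.2 CPM and at 5.59 CPM per kb. Over detected genes, the SD of the log2 CPM difference was 0.34 between replicates 1 and 3, 0.40 between 1 and 2 and 0.41 between 2 and 3, a description across genes, which are not independent replicates. All 8 neuroendocrine markers were detected, 7 above the median gene and INSM1 below it, with summed levels of 1124 to 1203 CPM. NEUROD1 (371 ± 39.7 CPM, SD, n = 3) far exceeded the tuft-cell subtype factor POU2F3, which was not detected. Of 10 fibroblast markers 7 were not detected, and the list summed to 11 to 14 CPM; 6 endothelial markers summed to 1.53 to 2.13 CPM, 6 leukocyte markers to 30.8 to 40.6 CPM and 5 lung epithelial markers to 1.49 to 1.83 CPM. The stromal genes COL1A2 and DCN had 0 to 3 counts in every library and CDH5 of endothelium 0 or 1, the pan-leukocyte gene PTPRC had 6, 10 and 7, and SFTPC, SCGB1A1 and KRT5 of lung epithelium had none. Whether the 3 came from separate cultures is not stated; the p-values therefore reflect only how far these samples scatter, and that scatter may be technical.

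Each detected gene was set against the median detected gene with limma's one-sample test on log2 CPM (Benjamini-Hochberg adjustment over all 14612 detected genes). TEAD1, TEAD3, TEAD4 and LATS1 (4 genes) lay above that reference, WWTR1, TEAD2 and CYR61 (3 genes) below it, YAP1 could not be told from it, and LATS2 and CTGF were not detected. Among all detected genes 45.9% were called above and 46.1% below, so a call by itself sets no gene apart, and the sizes carry the description. The median log2 distance of the 8 detected genes was 0.34.

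**Figure D1:**
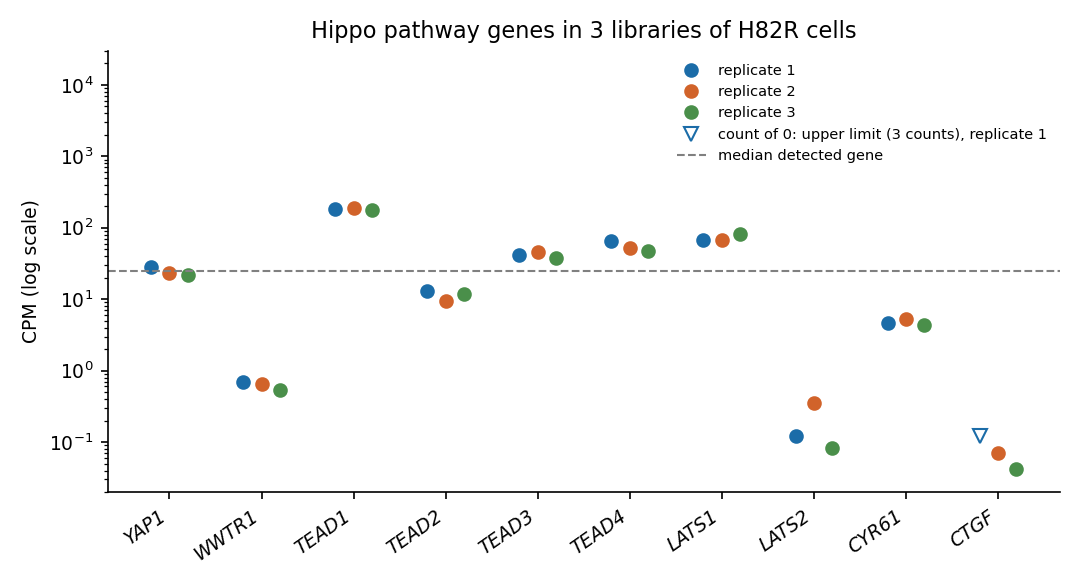
CPM on a log scale for each of the 10 genes, with 1 point per library and the median detected gene as a dashed line; the open triangle is the upper limit for the CTGF count of 0 in replicate 1. TEAD1 is highest at 179 to 190 CPM, and WWTR1, LATS2 and CTGF lie below 1 CPM in every library.

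The 2 coactivators were present at very unequal levels: YAP1 stood near the median gene and WWTR1 was barely detected. YAP1 had 691, 989 and 522 counts in replicates 1, 2 and 3, which are 27.8, 23.1 and 21.8 CPM, with replicate 1 highest. Its mean of 24.2 ± 3.17 CPM (SD, n = 3) lay at a log2 distance of -0.06 ± 0.10 (SE) from the median gene (limma, adjusted p = 0.608). Once exon length was taken into account YAP1 lay below the median gene, by a log2 distance of -0.53 ± 0.11 (SE; limma, adjusted p = 0.00183), and 40.5% of detected genes had a lower mean per kb. The call depended on the reference set: keeping every gene with a count lowered the reference and put YAP1 above it by 2.24 on the log2 scale (limma, adjusted p = 8.5e-13), while keeping only genes of at least 1 CPM in every library put it at -0.36 (limma, adjusted p = 0.00949), and over 12 alternatives the distance ran from -1.45 to 2.24 (adjusted p from 8.5e-13 to 0.855). Against the median of protein-coding genes YAP1 was called below, at -0.29 (limma, adjusted p = 0.0272). YAP1 lies on chromosome 11 from 102110461 to 102233423 (GRCh38, GENCODE 29, plus strand, 6.30 kb of exon).

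WWTR1 had 17, 28 and 13 counts, which are 0.684, 0.655 and 0.542 CPM. All 3 libraries were low, and none came near the YAP1 values. WWTR1 lay below the median gene by a log2 distance of -5.19 ± 0.21 (SE; limma, adjusted p = 8e-08), and only 2.29% of detected genes had a lower mean CPM. Per kb of exon, YAP1 exceeded WWTR1 by 54.3, 47.2 and 53.7 times in replicates 1, 2 and 3, with 95% exact (Clopper-Pearson) binomial intervals of 33.7 to 93.8, 32.5 to 71.4 and 31.1 to 101, and WWTR1 made up 1.90 ± 0.148% (SD, n = 3) of the pair's summed level. The ratio was in the same direction in 3 of 3 libraries. The exact two-sided sign-flip test over 3 libraries cannot go below p = 0.25, the value that each of the 12 ratios fixed for this pathway gave (adjusted over the 12, 0.25). WWTR1 lies on chromosome 3 from 149517235 to 149736714 (GRCh38, minus strand, 8.41 kb of exon). Of its exon bases 9.45% are also exon of the antisense gene WWTR1-AS1, and 9.97% of those of YAP1 are shared with an opposite-strand transcript; whether reads were counted by strand is not given in the sources used here, so reads from such partners cannot be told apart.

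Among the detected genes whose levels lay closest to those of YAP1 in every library were EML5 and RNPEPL1, with largest differences of 0.042 and 0.053 in log2 CPM over the 3 libraries. EML5 stood at 27.6, 22.6 and 21.2 CPM. With 3 libraries of 1 group this is a likeness of level and of small shifts between libraries, chosen from all detected genes.

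All 4 TEAD genes were detected, and together they far outweighed their coactivators at the RNA level. TEAD1, the founding member of the family, had 4516, 8103 and 4285 counts, which are 182, 190 and 179 CPM. The 3 values lay close together, and TEAD1 stood 2.87 ± 0.07 (SE) above the median gene on the log2 scale (limma, adjusted p = 4e-09). TEAD4 followed at 64.4, 52.8 and 46.6 CPM, highest in replicate 1, and lay above the median gene by 1.11 ± 0.10 (limma, adjusted p = 8.2e-06). TEAD3 stood at 41.2, 45.4 and 38.3 CPM, highest in replicate 2, and also lay above, by 0.73 ± 0.09 (limma, adjusted p = 5.3e-05). TEAD2, known as the TEAD gene of early embryonic and neural progenitor cells, was lowest at 13.0, 9.50 and 11.8 CPM in replicates 1, 2 and 3, and was the only TEAD gene called below the median gene, at -1.14 ± 0.13 (limma, adjusted p = 3.5e-05). Against the upper quartile of detected genes in place of the median, TEAD3 and TEAD4 turned to -0.66 and -0.28 (limma, adjusted p = 9.7e-05 and 0.0259), and TEAD2 turned to 1.15 (limma, adjusted p = 2.4e-07) where every gene with a count was kept. Over the 12 alternatives of each gene the adjusted p ran from 9.3e-16 to 0.00193 for TEAD3, from 3.2e-16 to 0.0259 for TEAD4 and from 1.3e-07 to 0.0022 for TEAD2.

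Which TEAD gene leads depended on whether transcript length was taken into account. By reads, TEAD1 held 60.5%, 63.8% and 64.9% of the family in replicates 1, 2 and 3, and TEAD4 held 21.4%, 17.8% and 16.9%. TEAD1 has 10.28 kb of annotated exon against 2.27 kb for TEAD4, 3.05 kb for TEAD3 and 2.98 kb for TEAD2. Per kb of exon TEAD4 led, with 40.3 ± 3.56% of the family (SD, n = 3), followed by TEAD1 with 30.2 ± 2.22%, TEAD3 with 23.1 ± 1.88% and TEAD2 with 6.47 ± 1.01%. The TEAD1 to TEAD4 ratio per kb was 0.624, 0.794 and 0.848 in the 3 libraries (95% exact binomial intervals of 0.590 to 0.661, 0.758 to 0.833 and 0.794 to 0.906), below 1 in 3 of 3 libraries, whereas the ratio of reads was 2.82, 3.59 and 3.84. With the length of the longest transcript in place of all exons TEAD4 again led, with 44.3 ± 3.63%. The lengths are those of GENCODE 29, and which transcripts the cells make was not measured, so the order of TEAD1 and TEAD4 rests on the annotated lengths.

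**Figure D2:**
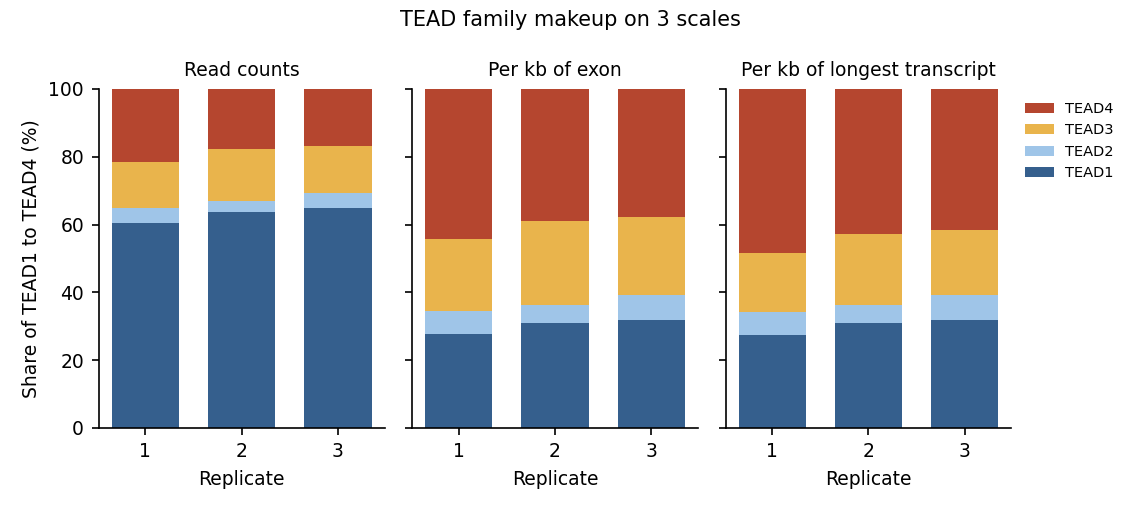
Stacked bars give the share of each TEAD gene in the family's summed level (percent) for replicates 1, 2 and 3, by read counts, by CPM per kb of exon and by CPM per kb of the longest transcript. TEAD1 is the largest share by counts (60.5 to 64.9%) and TEAD4 on both length-scaled measures.

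TEAD2 was the smallest of the family on each of these scales. Per kb, TEAD1 exceeded TEAD2 by 4.07, 5.79 and 4.39 times and TEAD3 by 1.31, 1.24 and 1.38 times in replicates 1, 2 and 3. TEAD2 was 0.321, 0.214 and 0.315 times TEAD3 and 0.154, 0.137 and 0.193 times TEAD4, and TEAD3 was 0.478, 0.642 and 0.614 times TEAD4. Each of these ratios kept its direction in 3 of 3 libraries. Summed per kb, the 4 TEAD genes stood at 63.9, 59.8 and 54.5 against 4.50, 3.75 and 3.52 for YAP1 and WWTR1 together, a ratio of 15.2 ± 0.889 (SD, n = 3), or 15.8 ± 0.818 with the longest transcripts. On GRCh38, TEAD1 lies on chromosome 11 from 12674591 to 12944483, TEAD2 on chromosome 19 from 49340595 to 49362457, TEAD3 on chromosome 6 from 35473597 to 35497076 and TEAD4 on chromosome 12 from 2959330 to 3040673. Of the TEAD2 exon bases 10.7% are also exon of CD37 on the opposite strand, a gene that stood at 8.30 ± 0.642 CPM (SD, n = 3), close to the TEAD2 level of 11.4 ± 1.76 CPM, and how many of the reads belong to which gene was not tested.

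The 2 LATS kinases, which inhibit YAP1 and TAZ by phosphorylation, differed by more than 100 times per kb in each library. LATS1 had 1665, 2857 and 1962 counts, which are 67.0, 66.9 and 81.9 CPM, with replicate 3 highest. It lay above the median gene by 1.51 ± 0.09 (SE) on the log2 scale (limma, adjusted p = 4.4e-07; against the upper quartile 0.12, adjusted p = 0.186, and from 4.2e-17 to 0.186 over 12 alternatives). LATS2, itself also a target of YAP1, had 3, 15 and 2 counts, which are 0.121, 0.351 and 0.0835 CPM, so that replicate 2 held most of its reads and it was not detected. Per kb of exon, LATS1 exceeded LATS2 by 358, 123 and 633 times in replicates 1, 2 and 3, with 95% exact binomial intervals of 122 to 1739, 74.4 to 220 and 175 to 5232. LATS1 lies on chromosome 6 from 149658153 to 149718256, with 4.72% of its exon bases shared with an opposite-strand transcript, and LATS2 on chromosome 13 from 20973032 to 21061547 (GRCh38, both minus strand).

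The 2 classical target genes, which encode secreted matricellular proteins, were both low, and they were low to different degrees. CYR61 had 116, 228 and 104 counts, which are 4.67, 5.34 and 4.34 CPM. The 3 libraries lay close together, and CYR61 lay below the median gene by a log2 distance of -2.38 ± 0.14 (SE; limma, adjusted p = 6.8e-07); it was not distinguished from the lower reference obtained by keeping every gene with a count (-0.09, adjusted p = 0.606, and from 5.4e-12 to 0.606 over 12 alternatives). CTGF had 0, 3 and 1 counts, which are 0, 0.0702 and 0.0417 CPM, and the count of 0 in replicate 1 allows up to 0.121 CPM. In replicate 1 CYR61 was at least 36.8-fold higher than CTGF per kb with the CTGF count of 0 set to 3 counts, and the lower limit of the 95% exact binomial interval, which also covers the counting error of CYR61, was 29.5. The ratio was 72.4 in replicate 2 and 99.1 in replicate 3, with 95% exact binomial intervals of 24.5 to 354 and 17.4 to 3951. In bulk RNA, fewer cells with a transcript and less transcript per cell cannot be told apart. CYR61 lies on chromosome 1 from 85580761 to 85583962 (plus strand) and CTGF on chromosome 6 from 131948176 to 131951373 (minus strand), with 8.34% of its exon bases shared with an opposite-strand transcript.

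CTGF, the member with the fewest reads, has 3 copies of the TEAD core hexamer in its promoter window. RefSeq promoter windows (GRCh38.p14, from 250 bases before to 50 bases after an annotated start) were found for 7 of the 10 genes; TEAD1, TEAD4 and CYR61 had no entry. The hexamer GGAATG was searched on both strands (reverse complement CATTCC). The 250 bases before the start are shown for CTGF, the gene with the most matches and the fewest reads, and for YAP1, the coactivator, 5′ to 3′ on the gene's strand with each match in capitals; they span chr6:131951373-131951622 (minus strand) and chr11:102110197-102110446 (plus strand).
CTGF: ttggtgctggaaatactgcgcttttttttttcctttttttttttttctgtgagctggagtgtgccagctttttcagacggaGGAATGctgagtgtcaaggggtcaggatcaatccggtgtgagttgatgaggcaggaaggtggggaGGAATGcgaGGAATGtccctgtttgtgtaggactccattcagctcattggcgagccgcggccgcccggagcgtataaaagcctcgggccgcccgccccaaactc
YAP1: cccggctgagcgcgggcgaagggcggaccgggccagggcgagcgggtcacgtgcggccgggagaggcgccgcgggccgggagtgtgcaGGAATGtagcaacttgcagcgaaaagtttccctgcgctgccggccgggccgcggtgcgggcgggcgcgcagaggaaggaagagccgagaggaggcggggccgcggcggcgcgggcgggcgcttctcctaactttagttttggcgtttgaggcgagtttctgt
The 3 CTGF matches begin at positions -169, -104 and -95 from the start, all on the gene's own strand, and the YAP1 match begins at -162. LATS2 had 1 match, at positions 10 to 15 after its RefSeq start, and none was found in the windows of WWTR1, TEAD2, TEAD3 and LATS1. In GENCODE 29 LATS2 starts further downstream, at 21061547 on the minus strand, so by that annotation the match lies before the start. The 50 bases after the RefSeq start were not found whole in a GENCODE 29 transcript for YAP1, TEAD2, TEAD3 and LATS2. Of 35116 promoter windows of this length, 14% held at least 1 match and 0.128% at least 3. A match is a description of the sequence only, and binding was not measured.

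**Figure D3:**
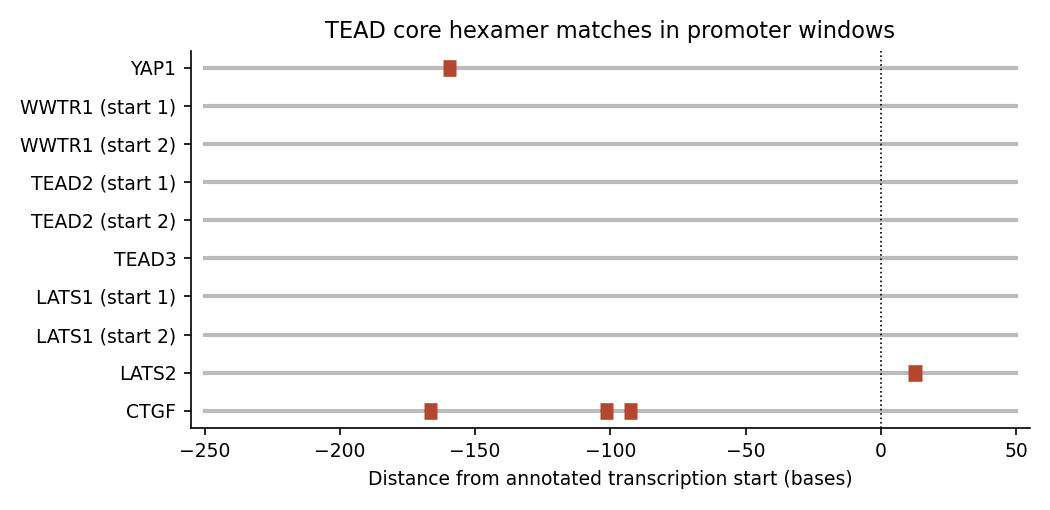
Grey lines are the 300-base promoter windows of the 7 genes with a RefSeq entry (2 annotated starts for WWTR1, TEAD2 and LATS1), by distance in bases from the start (dotted line), and red blocks are matches to the TEAD core hexamer on either strand. CTGF holds 3 matches, YAP1 and LATS2 hold 1 each.

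Ordered per kb of exon, the 10 genes ran from TEAD4 (24.0 CPM per kb, lowest 20.5 and highest 28.3 over the libraries) through TEAD1 (17.8), TEAD3 (13.7), LATS1 (8.32), YAP1 (3.85), TEAD2 (3.83), CYR61 (1.95), WWTR1 (0.0746) and LATS2 (0.0332) to CTGF (0.0160). Neighbours were called apart where their ranges over the 3 libraries did not overlap, which held for 7 of the 9 neighbouring pairs. YAP1 (3.46 to 4.42) and TEAD2 (3.19 to 4.35) did not differ beyond their spread, nor did LATS2 and CTGF. Both of the last means rest on few reads: LATS2 went from 0.185 to 0.102 mean CPM without replicate 2, and CTGF from 0.0373 to 0.0562 without replicate 1 and to 0.0208 without replicate 2. The upper 4, all 3 abundant TEAD genes and LATS1, lay above the median detected gene per kb, and the other 6 lay below it. The order depended on the length scale. On CPM with no length scaling all 9 neighbouring pairs were apart, with YAP1 (24.2 CPM) above TEAD2 (11.4 CPM). Per kb of the longest transcript TEAD2 (4.68) ranked above YAP1 (4.49), and these 2 genes were again not apart.

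**Figure D4:**
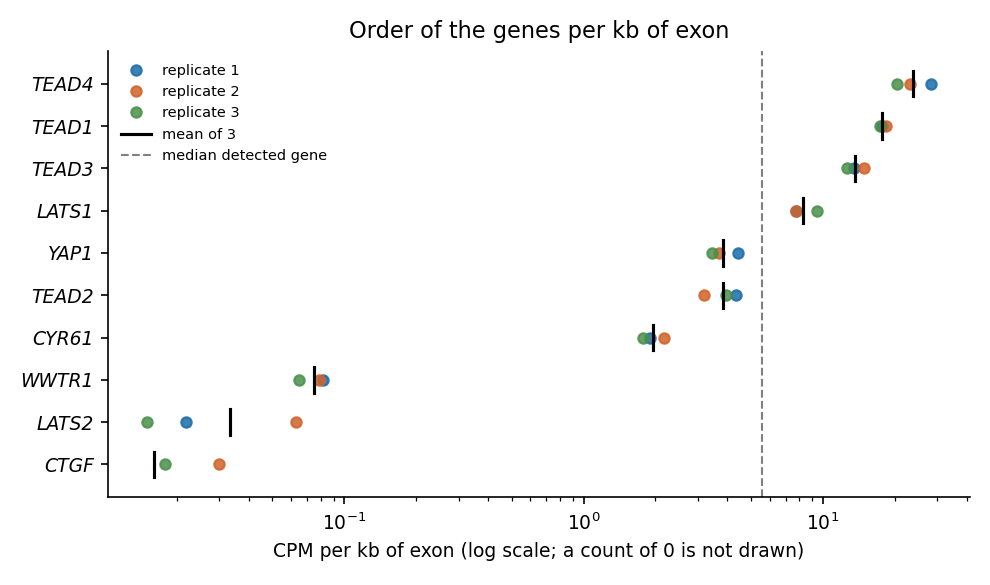
CPM per kb of exon on a log scale for the 10 genes in descending order, with 1 point per library, a bar at the mean of the 3 and the median detected gene (5.59) as a dashed line; the CTGF count of 0 is not drawn. The points of YAP1 and TEAD2 overlap, and WWTR1, LATS2 and CTGF lie below 0.1 CPM per kb.

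The libraries differed from each other by more than counting error for 6 of the 8 detected genes (chi-square test of homogeneity, adjusted over all detected genes), against 68.7% of all detected genes, so this spread was common in the data. TEAD4 had the smallest p, with 1.38 times between the highest and the lowest library (adjusted p = 4.5e-16), then LATS1 with 1.22 times (3.6e-12). YAP1 (1.28 times, adjusted p = 5.9e-05), TEAD3 (1.18 times, 0.00016), TEAD2 (1.36 times, 0.00019) and TEAD1 (1.06 times, 0.00648) also passed. CYR61 (1.23 times, adjusted p = 0.219) and WWTR1 (1.26 times, 0.825) did not pass, at counts where shifts of this size are hard to tell from counting noise. Without replicate 2, the deepest library, 3 genes passed (YAP1, TEAD4 and LATS1). The share of all detected genes that passed without replicate 2 is not given here, so this lower number cannot be read as a trait of these genes.

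The rest of the pathway was read from 6 lists of 101 genes, described by their counts beside the 45.9% above and 46.1% below among all detected genes. The list calls are on CPM with no length scaling. Per kb of exon, 44 of these genes were called above and 31 below, against 56 and 25 on CPM. The shares of 45.9% and 46.1% are likewise on CPM, and the shares of all genes called per kb are not given here. All 17 kinases and adaptors other than the LATS genes were detected, 13 above the median gene and 3 below (TAOK3, MAP4K1 and STK38L), with a median log2 distance of 1.11. STK4, the MST1 kinase, was highest per kb at 25.2 ± 1.62 CPM per kb (SD, n = 3), followed by the MAP4K family kinase MINK1 (19.6 ± 0.624) and the LATS cofactor MOB1A (18.1 ± 1.36); TAOK3 was lowest (1.65 ± 0.147). Paralogs were again unequal. STK3, the MST2 kinase, stood at 0.248, 0.166 and 0.159 times STK4 per kb, and MOB1A exceeded MOB1B by 3.23, 4.90 and 3.34 times. STK3 and MOB1B lay above the median gene on CPM, by 1.24 and 0.75 (limma, adjusted p = 5.1e-06 and 0.00078), but not per kb, at -0.24 and -0.21 (limma, adjusted p = 0.0850 and 0.195).

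STRIPAK, the phosphatase complex that opposes the MST kinases, was detected in all 16 members, 15 above the median gene and none below on CPM. SIKE1 (30.3 ± 2.44 CPM per kb), the phosphatase catalytic subunit PPP2CA (28.4 ± 1.67) and its scaffold PPP2R1A (28.1 ± 1.62) were highest, and STRIP2 (3.63 ± 0.528) was lowest; on CPM STRIP2 lay at -0.24 (limma, adjusted p = 0.0713). It was called below the reference per kb (-0.62; limma, adjusted p = 0.00113), without replicate 2 (-0.32, 0.0212), against protein-coding genes (-0.47, 0.00407), against the upper quartile (-1.63, 1.1e-06) and among genes of at least 1 CPM (-0.55, 0.00194), and above it where every gene with a count was kept (2.05, 6.9e-12); the adjusted p was highest without replicate 1, at 0.772. The 14-3-3 proteins and the casein kinase and ubiquitin ligase route that retain or degrade YAP1 were detected in 10 of 11 genes, all 10 above the median gene, with YWHAE at 162 ± 12.3, YWHAQ at 126 ± 15.1 and YWHAZ at 104 ± 3.64 CPM per kb and FBXW11 lowest at 7.68 ± 0.253. The undetected member was SFN, the epithelial 14-3-3 sigma, with 15, 11 and 5 counts. These proteins have many other partners.

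Membrane, junction and polarity inputs were mixed: 13 of the 28 were called above the median gene and 9 below, TJP1 passed in neither direction, and 5 went undetected. The polarity genes SCRIB (42.5 ± 3.07 CPM per kb) and LLGL1 (28 ± 2.46) and the tumor suppressor NF2 (14.2 ± 0.406), which recruits LATS kinases to the membrane, were highest, and WTIP (0.0341 ± 0.0142) was the lowest detected. FAT1 was not detected, with 0, 1 and 0 counts, and was named after its values were seen. Among the 10 nuclear partners 3 were called above, 4 were called below and 3 went undetected. VGLL4 (7.53 ± 0.647 CPM per kb), which competes with YAP1 for TEAD, and SMAD2 (2.48 ± 0.281) were among those called above, and VGLL3 (0.0698 ± 0.0149) was the lowest detected. VGLL4 exceeded YAP1 per kb by 1.86, 1.88 and 2.17 times, with 95% exact binomial intervals of 1.69 to 2.03, 1.74 to 2.03 and 1.96 to 2.40 in replicates 1, 2 and 3. SMAD2 lay above the median gene on CPM (1.84; limma, adjusted p = 1.2e-07) and below it per kb (-1.17; limma, adjusted p = 2.1e-05).

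Beyond CYR61, CTGF and LATS2, 19 widely used YAP1 and TAZ target genes were mostly low. Only 2 were called above the median gene against 9 below, and PTPN14 and ARHGEF17 passed in neither direction. Another 6 went undetected, in a table where 14612 of all 27574 genes were detected. The median log2 distance of the 13 detected target genes was -0.78. GADD45A (33.4 ± 5.84 CPM per kb), a stress gene that also answers to p53, and the Arf GTPase-activating gene ASAP1 (22.7 ± 1.42) were the 2 above, FJX1 (6.04 ± 1.42) was next per kb, and RBMS3 (0.0409 ± 0.00130) was the lowest detected. FJX1 lay below the median gene on CPM (-0.78; limma, adjusted p = 0.00071) and was not distinguished from it per kb (0.10; limma, adjusted p = 0.465). The undetected genes were MYOF, ANKRD1, AXL, IGFBP3, FOXF2 and NT5E, all named after their values were seen. ANKRD1, often read together with CYR61 and CTGF, had 8, 6 and 1 counts, AXL had 2, 0 and 0, and FOXF2 had none in any library. The target genes have other regulators, whose part was not tested.

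**Figure D5:**
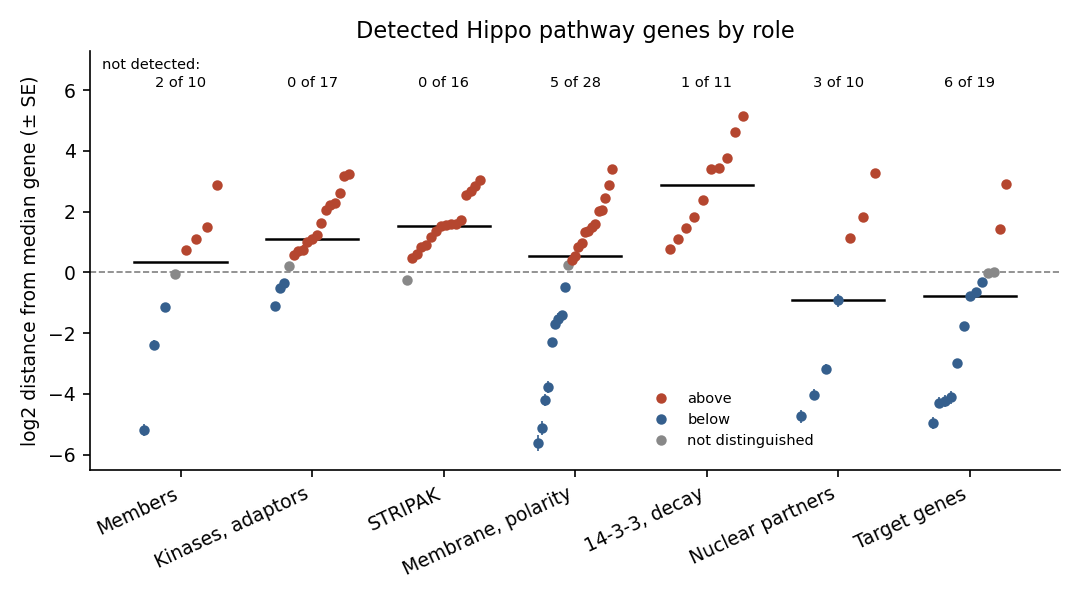
Log2 distance from the median detected gene (points, with SE bars from limma over 3 libraries) for the detected genes of each group, coloured by call, with the group's median as a black line and the number not detected above. The 14-3-3 and decay, STRIPAK and kinase groups have medians of 2.89, 1.54 and 1.11, and the nuclear partners and target genes have medians of -0.92 and -0.78.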

How the data were processed

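Total RNA of 3 libraries was sequenced, per the labels' protocols. The authors deposited raw read counts per gene symbol in 1 table, not normalized. The submitters' processing notes name STAR 2.6.1b and hg38. Which program and annotation gave the counts, whether by strand, and any filter is not given in the sources used here. Columns were matched to libraries by title. The 13 names turned into dates (0.0665 to 0.0736% of counts) were left out. Totals were 25013265, 42610181 and 23868201 counts.

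TMM factors came from edgeR 4.0.16 (R 4.3.3). Log2 CPM used a prior count of 2, and levels were tested with limma-trend (limma 3.58.1), two-sided, threshold 0.05. With 1 group, edgeR's quasi-likelihood test had no contrast and was not run. Log2 ratios added 0.5 to each count. Exon lengths and positions came from GENCODE 29 on GRCh38 (hg38); 92.5% of detected genes had a length.

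The genes, lists and pairs were chosen with earlier results of these data known. Genes named are the 10 genes, pair members, the 3 highest and the lowest detected gene per kb of each list, and the 3 nearest to YAP1 by largest log2 CPM difference. A few genes covered by the rule were kept in the fits and counts but are not reported here. Cell type marker lists are given as sums; single markers, and list genes named as called below, undetected or called in neither direction, were named after their values were seen. Alternatives were each library left out, filters of 1 CPM in every library or 1 count in any, plain totals, size factors of DESeq2 1.42.0, limma-voom, a prior count of 0.5, other references, a threshold of 0.01 and other lengths.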

Additional observations from a re-analysis of the deposited data

How the results depend on the processing

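Against the upper quartile of detected genes in place of the median, 1 of the 10 genes was called above and 6 below. Of the wider pathway genes 29 were called above and 47 below, against 56 and 25 with the median. Shares of all detected genes called are given here only for the main fits, on all 3 libraries and without length scaling. Counts at the other settings of this section have no such share beside them, so they set no gene apart. The TEAD1 to TEAD4 ratio turned from a mean log2 of -0.42 per kb to 1.76 by counts with no length scaling. Leaving out 1 library at a time, 3 to 5 of the 10 genes varied beyond counting error, 3 without replicate 2. Plain totals, DESeq2 size factors, limma-voom and a prior count of 0.5 left the numbers of the 10 genes called above (4) and below (3) as they were. Against the median of protein-coding genes, and also per kb of exon, 4 were called above and 4 below. Where every gene with a count was kept, 6 were called above and 3 below. Distances that changed sign were YAP1 at 0.11 without replicate 3 (from -0.08 to 0.11 over the 3 libraries left out), and, with every gene with a count kept, YAP1 at 2.24, TEAD2 at 1.15, TAOK3 at 1.77, STRIP2 at 2.05 and FJX1 at 1.51. Against the upper quartile the signs changed for TEAD3 at -0.66, TEAD4 at -0.28, VGLL4 at -0.28, FBXW11 at -0.62, STK3 at -0.15 and MOB1B at -0.64, and per kb for SMAD2 at -1.17, FJX1 at 0.10, STK3 at -0.24 and MOB1B at -0.21. A lower or higher reference and shorter or longer exons shift these distances by construction; for the other changes the cause was not tested. No paired analysis was possible because the labels form 1 group. Depth limits CTGF, LATS2 and WWTR1, whose ratios have wide counting intervals.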
